A study of Mus musculus with 24 samples.

Results

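The transcripts of 9 complement genes were followed in microvessels of the mouse brain after transient middle cerebral artery occlusion (tMCAO), the filament model of stroke with reperfusion. They were the rows of the deposited table of 17270 genes whose symbol was C1ra, C4b, C2, C3, Cfb, Serping1, Cd55, C3ar1 or C5ar1, and all 9 were found. Male C57BL/6J mice, aged 10 to 12 weeks, had a coated monofilament placed for 60 min or underwent sham surgery, in which the filament was withdrawn at once, and supportive care followed. Vessels of the hemisphere of surgery (ipsilateral) and of the other hemisphere (contralateral) were collected after 24 h or 7 days, which gave 8 groups with 3 libraries each. Each library pooled the same hemisphere of 3 perfused mice, with the meninges peeled off, so that pools and not single animals were the replicates. The authors had set aside libraries they judged to be outliers before deposit, so the spread within groups is that of the libraries kept. P-values measure the spread between these pools only.

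Complement is a cascade of plasma and tissue proteins that tags cells and debris, attracts leukocytes and can lyse membranes. The classical route starts when C1q binds its target and the protease C1r activates C1s, which cleaves C4 and C2 into a convertase that splits C3. The alternative route amplifies C3 cleavage with factor B. The fragments C3a and C5a signal through the receptors encoded by C3ar1 and C5ar1, which are found mainly on myeloid cells, while C1 inhibitor (Serping1) and decay-accelerating factor (Cd55) restrain the cascade. In the brain, complement transcripts are known from endothelial cells, astrocytes, microglia and perivascular macrophages. The libraries held RNA of whole vessel fragments, so that a lower share of a cell type and less RNA per cell cannot be told apart for any of these genes.

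The values are normalized counts, that is reads of a gene divided by a size factor of the library and rounded by the authors. Library totals lay between 15924780 and 18787932. For the tests, log2(value + 1) of the 15982 genes with a mean above 5 was fitted with limma over all 8 groups, which all 9 members passed. Regulated genes had an adjusted p (Benjamini-Hochberg, over these genes) below 0.05 and a fold change above about 1.5-fold in either direction. Fold changes are on the log2(value + 1) scale, which understates changes of low genes such as Cfb. All 8 endothelial markers checked were present, with summed levels of 276834 to 446318 normalized counts per library.

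In the mm10 genome, 4 members lie on chromosome 17, which holds C4b (chr17:34728380-34743882), Cfb (chr17:34856374-34862518), C2 (chr17:34862604-34895547) and C3 (chr17:57203970-57228136), all on the minus strand. C1ra (chr6:124512405-124523443, plus strand) and C3ar1 (chr6:122847138-122856161, minus strand) lie on chromosome 6. C5ar1 lies at chr7:16246743-16259540, Serping1 at chr2:84765387-84775444 and Cd55 at chr1:130439027-130462744, all on the minus strand. Because reads that matched several genes were excluded by the authors, sequence shared with other genes can bear on the levels. Of all windows of 75 bases in the longest transcripts, 81.2% of those of Cfb and 55.6% of those of C2 also occur in Gm20547, an annotated read-through gene on the same strand that spans both. For C1ra the share found elsewhere was 42.4%, mostly in its neighbour C1rb, for C4b 23.5%, in its near copy C4a, and for Cd55 7.55%, in Cd55b. Serping1, C3, C3ar1 and C5ar1 had no shared window. Gm20547 is not in the table, and which shared reads were left out is not known. The levels of Cfb, C2, C1ra and C4b are therefore uncertain. Zbtb12 overlaps C2 by 16065 bases on the opposite strand, and the library kit preserved strand.

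RefSeq start sites (GRCm38.p6) were found for 5 of the 9 members, namely C3, C1ra, Cd55, C3ar1 and C5ar1, and not for C4b, C2, Cfb and Serping1. The 250 bases before the start of C3 (chr17:57228137-57228386, minus strand) and of C3ar1 (chr6:122856158-122856407, minus strand) are printed 5′ to 3′. Each holds a motif match near its start. In the stroke hemisphere at 24 h, C3 was called higher against both sham and the contralateral hemisphere. C3ar1 was called higher there against the contralateral hemisphere only and not against sham. That call of C3ar1 was lost in 5 of 6 fits that left out 1 library. Capitals mark matches on either strand to TTNNGNAA, the core that C/EBP factors bind, in C3 and to TGANTCA, the AP-1 site, in C3ar1.
C3: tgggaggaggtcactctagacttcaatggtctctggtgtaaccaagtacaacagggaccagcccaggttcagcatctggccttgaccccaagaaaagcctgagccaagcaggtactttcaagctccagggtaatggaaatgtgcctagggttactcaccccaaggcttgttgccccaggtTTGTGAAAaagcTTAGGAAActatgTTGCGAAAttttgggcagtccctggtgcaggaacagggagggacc
C3ar1: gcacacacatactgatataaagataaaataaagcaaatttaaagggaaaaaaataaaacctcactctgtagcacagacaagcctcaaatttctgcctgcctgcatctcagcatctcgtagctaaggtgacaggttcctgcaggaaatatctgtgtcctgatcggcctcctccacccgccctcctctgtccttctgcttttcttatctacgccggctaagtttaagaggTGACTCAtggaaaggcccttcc
C3 held 3 matches to the C/EBP core within the last 70 bases, which begin at positions -70, -58 and -45 from the start and do not overlap. At least 1 match was present in 40.3% of 27025 genes and at least 3 in 3.06%. The AP-1 match of C3ar1 begins at -22, and 7.82% of genes held such a match. C1ra held 2 C/EBP matches, beginning at -72 and -29, and C5ar1 1, beginning at -157. The RefSeq start of C3ar1 lies a few bases inside its annotated mm10 span, and those of C1ra and C5ar1 lie farther inside theirs, so the windows of the latter are not printed. No member window held a match to the STAT motif TTCNNNGAA (8.13% of genes), the motif of interferon-stimulated genes (3.46%) or the NF-kB motif (4.46%), and the Cd55 window held none of the 5 motifs. A match describes letters in the sequence and not a bound site.

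C4b, the substrate of C1s that forms part of the classical convertase, was called higher at 7 days, and not at 24 h, in both hemispheres of stroke mice. In the ipsilateral hemisphere at 24 h, the libraries of replicates 1 to 3 held 390, 580 and 691 normalized counts after stroke and 546, 521 and 703 after sham surgery. At 7 days the stroke libraries held 1200, 1209 and 1130 and the sham libraries 471, 487 and 715. All 3 stroke libraries at 7 days thus stood above every sham library, and the groups at 24 h overlapped. The log2 fold change against sham was -0.12 at 24 h (95% interval -0.57 to 0.33, adjusted p = 0.707) and 1.11 at 7 days (SE 0.216, 2.15-fold, adjusted p = 0.00117), which was called regulated. The stroke effect at 7 days minus that at 24 h was itself called, at 1.22 (SE 0.305, adjusted p = 0.0151), but without replicate 1 of the stroke ipsilateral libraries at 24 h it was 0.99 with an adjusted p of 0.0520. Within the stroke ipsilateral hemispheres, C4b rose from 24 h to 7 days by 1.13 on the log2 scale (SE 0.216, adjusted p = 0.00128).

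In the contralateral hemisphere at 7 days, C4b was also called higher after stroke. The stroke libraries held 1103, 1211 and 671 normalized counts, against 361, 392 and 445 in the sham contralateral libraries, and the groups did not overlap. The log2 fold change was 1.27 (SE 0.216, 2.42-fold, adjusted p = 0.0358). C4b was 1 of 4 genes called higher in this comparison, which is 0.025% of the genes tested, and 0.00626% were called lower. Leaving out any library of both groups other than replicate 3 of the stroke libraries ended the call, with log2 fold changes of 1.11 to 1.36 and adjusted p of 0.0609 to 0.224, and with only these groups in the fit the adjusted p was 0.807. At 24 h the stroke contralateral libraries held 454, 546 and 411 and the sham contralateral libraries 396, 488 and 482, with a log2 fold change of 0.04 (95% interval -0.41 to 0.49). Between the hemispheres of stroke mice at 7 days C4b differed by 0.29 on the log2 scale (95% interval -0.16 to 0.74, adjusted p = 0.445), which did not pass. The stroke effects of the hemispheres at 7 days, compared after the data had been seen, differed by -0.17 (95% interval -0.81 to 0.47). In the stroke contralateral libraries the summed astrocyte markers were 49748, 16666 and 20033 at 7 days, in the order of the replicates, against 13322 to 14679 in the sham contralateral libraries, while in the stroke ipsilateral libraries at 7 days they were 9676 to 13045. The neuron sums were 20277, 7062 and 7470 in the same stroke contralateral libraries, against 4975 to 7209 in the sham contralateral libraries. The oligodendrocyte sums were 104081, 67249 and 55448, against 32598 to 59179. Of the 6 markers in each of the astrocyte, neuron and oligodendrocyte lists, 0 were called in this contralateral comparison. The part of these cells in the C4b level was not tested.

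C1ra, which encodes the C1r protease, was called higher in the ipsilateral than in the contralateral hemisphere 24 h post-stroke, and it did not pass against sham in the fit of all groups. At 24 h the stroke ipsilateral libraries held 276, 374 and 382 normalized counts, the sham ipsilateral libraries 189, 239 and 230 and the stroke contralateral libraries 191, 177 and 238. The stroke ipsilateral libraries lay above all libraries of both other groups. Against the contralateral hemisphere C1ra was called higher, at 0.76 on the log2 scale (SE 0.257, 1.70-fold, adjusted p = 0.0359). This call was lost with median centring of the libraries (0.68, adjusted p = 0.0602), after correcting for the length and GC content of transcripts (0.60, adjusted p = 0.12), and without replicate 1 (0.73, adjusted p = 0.0905) or 2 (0.67, adjusted p = 0.109) of the contralateral or replicate 2 (0.69, adjusted p = 0.111) or 3 (0.68, adjusted p = 0.0965) of the ipsilateral libraries. Against sham the log2 fold change was 0.64 (SE 0.257, adjusted p = 0.0650), which did not pass, while with only these groups in the fit it passed (adjusted p = 0.0199). At 7 days the stroke ipsilateral libraries held 437, 596 and 338 and the sham ipsilateral libraries 400, 380 and 246, with a log2 fold change of 0.41 (95% interval -0.13 to 0.95). Both groups overlapped, and 1 contralateral stroke library, replicate 2 with 570 against 238 and 294, stood near the highest ipsilateral values. Without that library the difference between the stroke hemispheres at 7 days, 0.38 with all libraries, was 0.75 with an adjusted p of 0.0285, and without replicate 1 of the contralateral libraries it was 0.12 with an adjusted p of 0.850. Without replicate 2 of the ipsilateral libraries it was 0.17 (adjusted p = 0.768).

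C2, the partner of C4b in the classical convertase, was the only member called lower against sham. At 7 days the stroke ipsilateral libraries held 12, 19 and 16 normalized counts and the sham ipsilateral libraries 30, 31 and 36, without overlap. The log2 fold change was -1.02 (SE 0.329, adjusted p = 0.0375). The call ended when any library of both groups other than replicate 2 of the stroke libraries was left out, with values of -0.85 to -1.07 and adjusted p of 0.0690 to 0.155, and with only these groups in the fit (adjusted p = 0.0613). At 24 h the stroke ipsilateral libraries held 11, 20 and 26 and the sham ipsilateral libraries 13, 25 and 24, and the groups overlapped (log2 fold change -0.14, 95% interval -0.83 to 0.55). The sham ipsilateral level at 7 days, with a mean of 32.3 ± 3.21 (SD, n = 3), was among the highest of the 8 groups and that at 24 h, 20.7 ± 6.66 (SD, n = 3), among the lowest. C2 was thus lower after stroke relative to the later sham group, while its stroke ipsilateral level differed by -0.21 on the log2 scale between the time points (95% interval -0.89 to 0.48). In the same comparison at 7 days, all 6 neuron markers were called lower, with a median log2 fold change of -2.89 and sums of 937 to 1384 normalized counts against 6700 to 11380 in the sham libraries. Of the choroid plexus markers 4 of 6 were called lower (median -2.63, sums of 654 to 3121 against 15808 to 28981) and of the astrocyte markers 2 of 6 (median -1.07). The macrophage (median -0.25) and fibroblast (median -0.77) lists also had 2 of 6 each lower. The oligodendrocyte, microglia and T and B cell lists had 1 marker each lower. Called higher were 1 microglial, 1 neutrophil and 2 monocyte markers. The part of these cells in the C2 level was not tested. The C2 stroke effect at 7 days minus that at 24 h was -0.88 (adjusted p = 0.237).

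**Figure D1:**
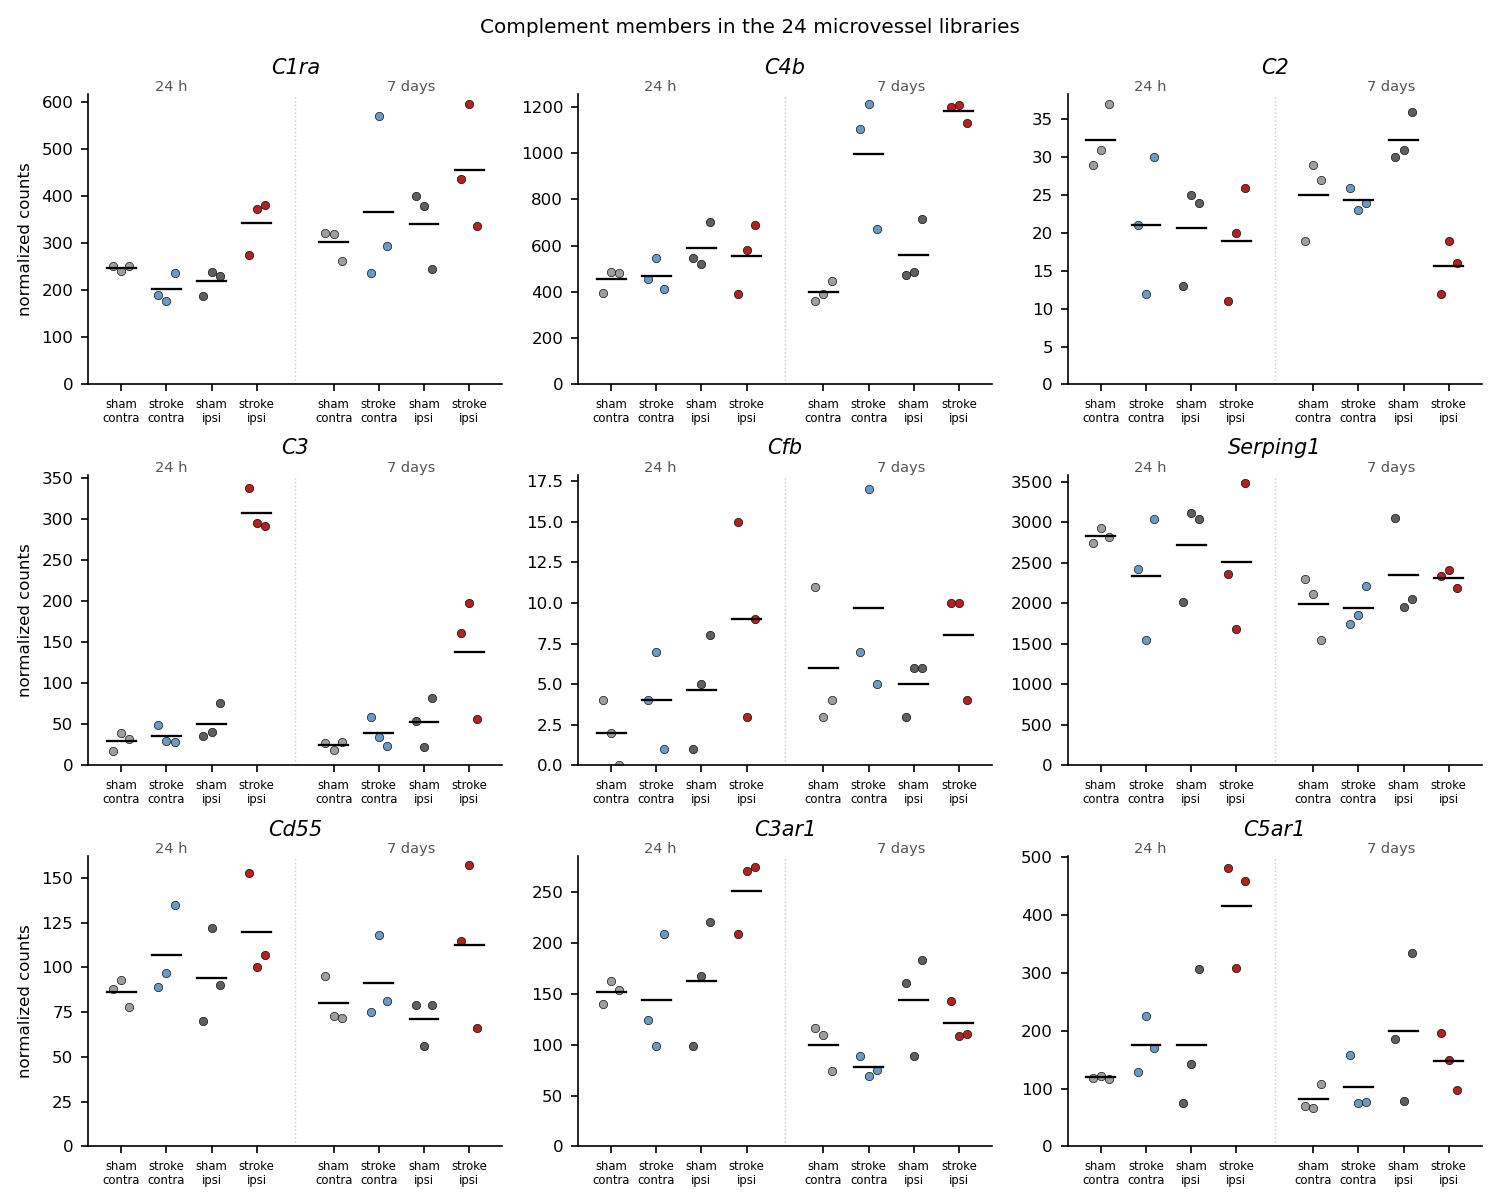
Normalized counts (vertical axes, linear from 0) of the 9 members in each of the 24 libraries. Points are libraries, horizontal bars are means of 3 libraries, and the groups are ordered by time, hemisphere and surgery. C3 stood at 291 to 337 in the stroke ipsilateral libraries at 24 h, against 18 to 82 in the 12 sham libraries, and C4b at 671 to 1211 in both hemispheres of stroke mice at 7 days.

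C3, the component on which all routes converge, had the largest fold change of the 9 members against sham in the ipsilateral hemisphere, at both times. At 24 h the stroke ipsilateral libraries held 337, 295 and 291 normalized counts, the sham ipsilateral libraries 36, 41 and 76 and the stroke contralateral libraries 49, 30 and 28. The lowest stroke ipsilateral library was above every library of the other 7 groups. C3 was called higher against sham, at 2.64 on the log2 scale (SE 0.475, 6.25-fold, adjusted p = 4.1e-04), and against the contralateral hemisphere, at 3.11 (SE 0.475, 8.66-fold, adjusted p = 1.1e-04). Both calls held without each library in turn, with log2 fold changes of 2.44 to 2.97 and 2.97 to 3.36. The ipsilateral stroke effect exceeded the contralateral one by 2.38 (SE 0.671, adjusted p = 0.0350), a comparison added after the data had been seen. That call held only without replicate 1 of the sham or the stroke contralateral libraries or replicate 3 of the sham or the stroke ipsilateral libraries, and the other 8 fits gave 2.14 to 2.40 with adjusted p of 0.0678 to 0.102.

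The C3 values were less even at 7 days. The stroke ipsilateral libraries held 161, 198 and 56, the sham ipsilateral libraries 54, 22 and 82 and the stroke contralateral libraries 59, 35 and 24. Replicate 3 of the stroke ipsilateral libraries lay within the range of the sham libraries. Against sham the log2 fold change was 1.38 (SE 0.475, adjusted p = 0.0516), which did not pass. It passed without replicate 3 of the stroke libraries (1.93, adjusted p = 0.00741), without replicate 3 of the sham libraries (1.78, adjusted p = 0.0224), with median centring (1.42, adjusted p = 0.0371) and with the correction for length and GC content (1.48, adjusted p = 0.0233). It was 0.86 (adjusted p = 0.270) without replicate 2 of the sham libraries, and with only these groups in the fit the adjusted p was 0.191. Against the contralateral hemisphere C3 was called higher at 1.70 (SE 0.475, 3.24-fold, adjusted p = 0.0160), although the groups overlapped. This call was lost without replicate 3 of the contralateral libraries (1.40, adjusted p = 0.0759), replicate 1 (1.49, adjusted p = 0.0855) or replicate 2 (1.35, adjusted p = 0.0905) of the ipsilateral libraries, and with only these groups in the fit (adjusted p = 0.0973). Between 7 days and 24 h after stroke the ipsilateral level differed by -1.33 (SE 0.475, adjusted p = 0.0547), which did not pass, except without replicate 2 of the libraries at 7 days (-1.68, adjusted p = 0.0350), and without replicate 3 at 7 days it was -0.78 (adjusted p = 0.293). The ipsilateral stroke effect of C3 at 7 days minus that at 24 h was not called. Without each library in turn it was -1.79 to -0.72, with limma adjusted p of 0.0836 to 0.532. Of the 6 stroke ipsilateral libraries, replicate 3 at 7 days had the lowest C3 value. It also had the lowest monocyte (561 normalized counts) and neutrophil (686) marker sums. The monocyte sums of the other libraries were 2485 and 1324 at 7 days (replicates 1 and 2). At 24 h they were 4135, 1926 and 3689 (replicates 1 to 3). The neutrophil sums were, in the same order, 4109 and 2387 at 7 days and 5389, 3973 and 2301 at 24 h. The part of these cells in C3 was not tested.

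Cfb, which encodes factor B of the alternative route, was near the lower limit of the table. It reached at most 17 normalized counts in any library and was listed at 0 in 1, and its mean of 6.04 lay just above the minimum of 5. The stroke ipsilateral libraries held 15, 3 and 9 at 24 h and 10, 10 and 4 at 7 days, and the sham ipsilateral libraries held 1, 5 and 8 and 3, 6 and 6. These groups overlapped at both time points. The log2 fold changes of 0.86 at 24 h and 0.54 at 7 days had 95% intervals of -0.63 to 2.34 and -0.95 to 2.03, so that neither a rise nor a fall was distinguished at this level. Whether reads that Cfb shares with Gm20547 were left out is not known, and their part in the low level was not tested.

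Among the regulators, Serping1 had the highest level per kilobase of the members and was called in no comparison. At 24 h its stroke ipsilateral libraries held 2363, 1680 and 3484 normalized counts and its sham ipsilateral libraries 2012, 3110 and 3048. At 7 days they held 2339, 2415 and 2187, against 3057, 1962 and 2049. The groups overlapped at both time points. The log2 fold changes were -0.15 (95% interval -0.68 to 0.37) and 0.00 (95% interval -0.52 to 0.53). In the sham contralateral libraries, where no ischaemia was induced, Serping1 went from 2749, 2930 and 2823 at 24 h to 2300, 2121 and 1546 at 7 days without overlap, at -0.53 on the log2 scale (adjusted p = 0.454), which did not pass.

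Cd55, a membrane protein that speeds the decay of convertases, held 153, 100 and 107 normalized counts in the stroke ipsilateral libraries at 24 h and 115, 157 and 66 at 7 days. The sham ipsilateral libraries held 70, 122 and 90 at 24 h and 79, 56 and 79 at 7 days, and the groups overlapped at both times. The log2 fold change was 0.36 at 24 h (95% interval -0.22 to 0.94) and 0.58 at 7 days (SE 0.279, adjusted p = 0.170), and neither was called. Without replicate 3 of the stroke libraries at 7 days the latter was 0.92 with an adjusted p of 0.0247, and without replicate 2 of them it was 0.30 with an adjusted p of 0.532.

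Both anaphylatoxin receptors were highest in the ipsilateral hemisphere 24 h post-stroke and lower at 7 days. C5ar1 held 481, 309 and 459 normalized counts in the stroke ipsilateral libraries at 24 h, against 75, 143 and 307 in the sham ipsilateral libraries. The stroke libraries did not overlap with the sham libraries, but the lowest of them exceeded the highest sham library by only 2 normalized counts. C5ar1 was called higher at 1.45 on the log2 scale (SE 0.468, 2.73-fold, adjusted p = 0.0249). The call was lost without replicate 1 (0.96, adjusted p = 0.158) or 2 (1.42, adjusted p = 0.0606) of the sham or replicate 1 (1.33, adjusted p = 0.0821) or 3 (1.37, adjusted p = 0.0611) of the stroke libraries. Against the stroke contralateral libraries, which held 128, 226 and 170, the difference was 1.26 (SE 0.468, adjusted p = 0.0552), which did not pass. It passed with only these groups in the fit (adjusted p = 0.0128).

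At 7 days the C5ar1 values were 196, 149 and 97 after stroke and 185, 78 and 334 after sham surgery in the ipsilateral hemisphere, and the groups overlapped. The log2 fold change was -0.26 (95% interval -1.23 to 0.72). Within the stroke ipsilateral hemispheres C5ar1 fell by 1.52 on the log2 scale from 24 h to 7 days (SE 0.468, adjusted p = 0.0274). This call was lost without replicate 1 (-1.41, adjusted p = 0.101) or 3 (-1.44, adjusted p = 0.0692) at 24 h and without replicate 2 (-1.56, adjusted p = 0.0575) or 3 (-1.25, adjusted p = 0.120) at 7 days. The stroke effect at 7 days minus that at 24 h was -1.71 (SE 0.662, adjusted p = 0.106), which did not pass, except without replicate 3 of the sham libraries at 24 h (-2.22, adjusted p = 0.0361) or replicate 2 of the sham libraries at 7 days (-2.26, adjusted p = 0.0272). Without replicate 1 of the sham libraries at 24 h or replicate 3 at 7 days it was -1.21 (adjusted p = 0.288) or -1.22 (adjusted p = 0.267).

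C3ar1 held 209, 271 and 275 normalized counts in the stroke ipsilateral libraries at 24 h, 99, 168 and 221 in the sham ipsilateral libraries and 124, 99 and 209 in the stroke contralateral libraries. Replicate 1 of the stroke ipsilateral libraries fell below the highest sham library and equalled the highest contralateral library. Against sham the log2 fold change was 0.69 (SE 0.298, adjusted p = 0.0841), which did not pass, and it was 0.95 with an adjusted p of 0.0358 without replicate 3 of the sham libraries and 0.37 with an adjusted p of 0.398 without replicate 1 of them. Against the contralateral hemisphere C3ar1 was called higher at 0.86 (SE 0.298, 1.82-fold, adjusted p = 0.0398). Leaving out any library of these groups other than replicate 3 of the contralateral libraries ended that call (0.63 to 0.99, adjusted p of 0.0509 to 0.173), as did median centring (0.78, adjusted p = 0.0550) and a fit of these groups only (adjusted p = 0.0597). At 7 days the stroke ipsilateral libraries held 143, 109 and 111 and the sham ipsilateral libraries 161, 89 and 183, with overlap (log2 fold change -0.20, 95% interval -0.82 to 0.42). Within the stroke ipsilateral hemispheres C3ar1 fell by 1.05 on the log2 scale from 24 h to 7 days (SE 0.298, adjusted p = 0.0179). Without replicate 2 or 3 of either time point it was -0.98 to -0.99, with adjusted p of 0.0517 to 0.0604. The contralateral groups differed in the same direction without being called. Between 24 h and 7 days C3ar1 differed by -0.63 in the sham contralateral (adjusted p = 0.455) and by -0.82 in the stroke contralateral libraries (adjusted p = 0.184), neither group overlapping between the times. The ipsilateral stroke effect of C3ar1 at 7 days minus that at 24 h was not called. Without each library in turn it was -1.20 to -0.57, with limma adjusted p of 0.0686 to 0.445.

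**Figure D2:**
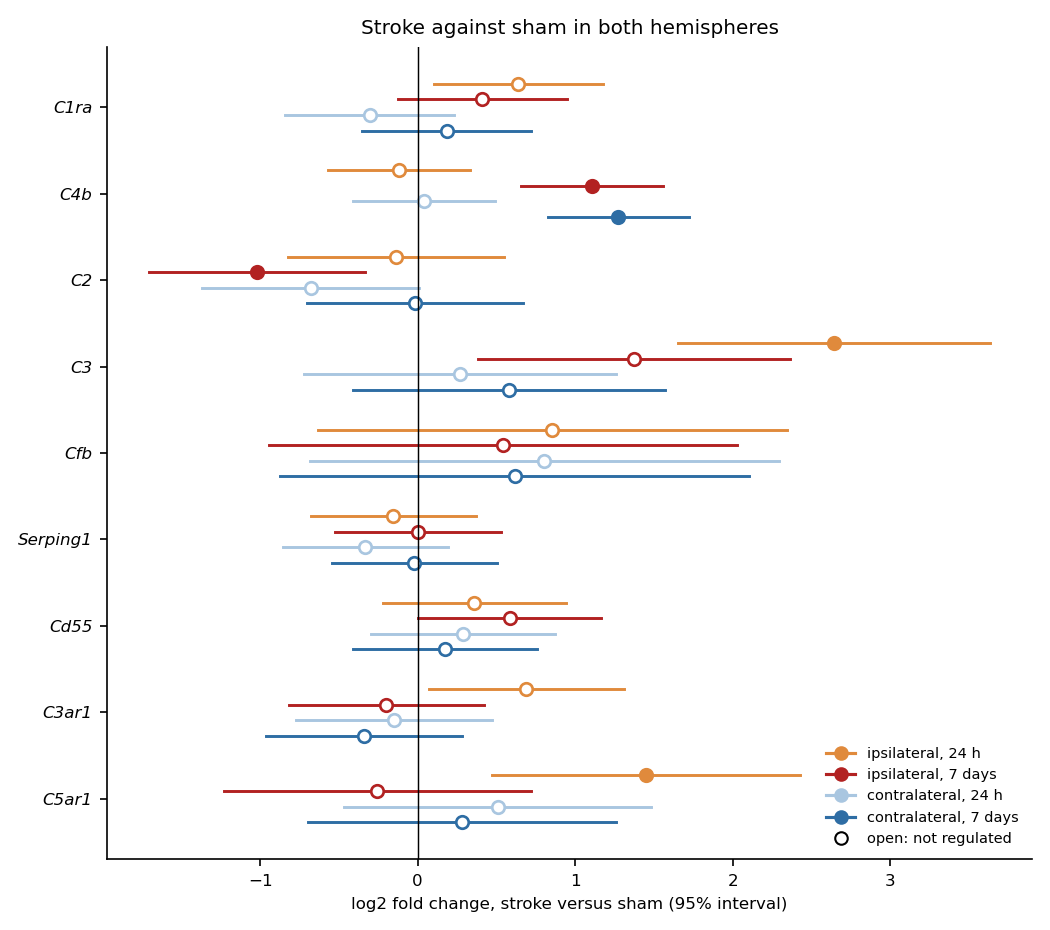
Log2 fold change of stroke against sham (horizontal axis) for each member, ipsilateral and contralateral, at 24 h and 7 days. Points are limma estimates over 3 libraries a group, lines are 95% intervals, and filled points were called regulated. C3 (2.64) and C5ar1 (1.45) were called ipsilaterally at 24 h, C4b (1.11) and C2 (-1.02) ipsilaterally at 7 days, and C4b (1.27) contralaterally at 7 days.

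Counted over the members, stroke against sham in the ipsilateral hemisphere gave 2 of 9 higher and 0 lower at 24 h, where 10% of all genes tested were called higher and 8.23% lower. The median log2 fold change of the members was 0.64, against -0.02 over all genes. At 7 days 1 member was called higher and 1 lower, where 3.27% and 9.95% of all genes were, and the members' median was 0.41 against 0.02. The libraries did not overlap for 3 members at 24 h and 2 at 7 days, while they did not overlap for 49% and 30% of all genes. Between the hemispheres of stroke mice 3 members (C3, C3ar1 and C1ra) were higher ipsilaterally at 24 h, where 8.51% of genes were higher and 5.14% lower, and 1 (C3) at 7 days, where 3.03% were higher and 9.98% lower. From 24 h to 7 days in the stroke ipsilateral hemispheres 1 member was higher and 2 were lower, where 3.72% and 8.44% of genes were. The interaction of stroke and time called 1 member higher, where 2.43% of genes were higher and 5.68% lower. The added interaction of stroke and hemisphere called 1 member higher at 24 h, where 4.64% of genes were higher and 1.25% lower. At 7 days it called 0 members, where 9.84% of genes were called. There 1 member (C2, -1.0) had an unadjusted p under 0.05, as did 20.7% of all genes. These comparisons share their stroke ipsilateral libraries.

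No member was called between the sham hemispheres at 24 h or 7 days or between stroke and sham in the contralateral hemisphere at 24 h. In these comparisons 0% of genes were called in limma's test. Before adjustment, 367, 359 and 405 genes (2.3%, 2.25% and 2.53%) had a p under 0.05. Of the 9 members, 2 were among the 359 of the sham hemispheres at 7 days and 0 among the others. The fit did not pair the sham hemispheres and shared its spread over all groups, so the absence of calls does not show equal levels. Between the time points of the contralateral stroke libraries 0% of genes were also called. There 2637 genes (16.5%) had an unadjusted p under 0.05, 3 of them members. The added interaction of time and stroke contralaterally likewise called 0%. C4b was uncalled in both, at 1.04 (adjusted p = 0.107) and 1.23 (adjusted p = 0.741). Without replicate 3 of the stroke contralateral libraries at 7 days, the former was 1.31 with an adjusted p of 0.0366, and without each other library it was 0.88 to 1.16. Between 24 h and 7 days after sham surgery, 0 members were called in either hemisphere, where 0.476% of genes were called ipsilaterally and 0.332% contralaterally. An unadjusted p under 0.05 was reached by 1 member ipsilaterally and 2 contralaterally, and by 14.1% and 10.8% of all genes. Between the hemispheres of sham mice the libraries did not overlap for 3 of 9 members at 24 h and for 2 at 7 days, where they did not overlap for 11.5% and 7% of all genes. Between the sham time points they did not overlap for 2 members ipsilaterally and 4 contralaterally, where they did not for 22% and 17.6% of all genes. Between the sham hemispheres at 7 days, C5ar1 was 1.08 higher ipsilaterally on the log2 scale and C4b 0.46 higher, both with an adjusted p of 1. C3 and C4b were each higher ipsilaterally in all 6 same-numbered pairs of sham libraries, and neither was called. C5ar1 was higher in 5 pairs, Cfb, Serping1 and C3ar1 in 4, C2 and Cd55 in 3 and C1ra in 2. The matching share over all genes was not determined.

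Per kilobase of exon sequence, over all 24 libraries, Serping1 had 1022 normalized counts, followed by C4b (114), C1ra (104), C5ar1 (68.9), C3ar1 (33.5), Cd55 (19.6), C3 (16.5), C2 (6.14) and Cfb (2.14). The order differed between groups. In the stroke ipsilateral libraries at 24 h C5ar1 was second with 162 normalized counts per kilobase, before C1ra (115) and C4b (97.2), and C3 (59.8) came before C3ar1 (58.5) and Cd55 (24.7). The levels of C4b, C1ra, C2 and Cfb may leave out reads they share with other genes. Neighbours in the order of the 8 group means overlapped in nearly all cases. For C3 the groups in places 1 and 2, the stroke ipsilateral libraries at 24 h (308 ± 25.5, SD, n = 3) and 7 days (138 ± 73.7, SD, n = 3), did not overlap, and every later pair of neighbours did. For C4b the stroke ipsilateral (1180 ± 43.2, SD, n = 3) and contralateral libraries (995 ± 286, SD, n = 3) at 7 days took places 1 and 2 and overlapped, and the next group had 590 ± 98.7 (SD, n = 3).

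Across the 24 libraries, the log2 values of C3 and C5ar1 went together most closely among the members (Pearson r = 0.78), followed by C3ar1 and C5ar1 (r = 0.77), as a description of libraries that share groups and normalization. The lowest was that of C2 and Cfb (r = -0.40). Among 12158 genes with a mean above 50, those most like C3 were Emilin2 (r = 0.953), Cotl1 (0.946) and Fgr (0.944), and those most like C5ar1 were Plek (0.947), Ms4a6d (0.944) and Cd53 (0.943). C3ar1 was nearest to P2ry6 (0.873), Fcgr3 (0.859) and Loxl1 (0.846), and Serping1 to Pdgfrl (0.864), Itgb5 (0.847) and Csf1r (0.844). C4b was nearest to Fth1 (0.811), Best1 (0.796) and Pde9a (0.779), and C1ra to 9030617O03Rik (0.847), Il17rc (0.812) and Ppcdc (0.808). The highest values were lower for C2 (Mmgt2, 0.779, Crtac1, 0.738, and Lypd6, 0.725), Cd55 (Zdhhc13, 0.725, Smad2, 0.694, and mt-Nd5, 0.678) and Cfb (Mir99ahg, 0.671, Wfdc17, 0.578, and Plxna4, 0.577).

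The members were set beside the wider complement system, a list of 62 genes of which 45 were in the table and 41 were tested, 32 of them not members. At 24 h ipsilaterally, 7 of these 32 were called higher and 4 lower against sham, where 10% of all genes tested were called higher and 8.23% lower. The later time gave 5 higher and 4 lower, where 3.27% and 9.95% of all genes were called so. The medians of all 41 were 0.22 and 0.20, against -0.02 and 0.02 over all genes. The receptor chains that bind cleaved C3 on leukocytes rose at both times: Itgam from 34.7 ± 11.1 to 226 ± 28.8 normalized counts at 24 h (SD, n = 3, log2 fold change 2.71) and by 1.02 at 7 days, Itgb2 by 2.23 and 1.52, and Itgax by 1.79 and 1.75. Ptx3, a soluble pattern recognition protein that binds C1q, held 26 to 39 normalized counts in the stroke and 0 to 16 in the sham ipsilateral libraries at 24 h and rose by 3.13 (SE 1.11, adjusted p = 0.0384). Properdin (Cfp), which stabilizes the alternative convertase, rose by 1.27 and C1qbp by 1.15 at 24 h, and both were uncalled at 7 days (-0.02 and -0.13). The difference of the stroke effects between the times was called for each of them, at -1.29 (adjusted p = 0.00757) and -1.28 (adjusted p = 3.7e-05).

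Factor I (Cfi), a protease that inactivates C3b and C4b, was called higher at 7 days. Cfi held 34 to 48 normalized counts in the stroke and 3 to 6 in the sham ipsilateral libraries (log2 fold change 3.12, SE 0.646, adjusted p = 0.00191). Called lower were Colec11 (-1.33), Susd4 (-1.12), Colec12 (-0.94) and Vtn (-0.67) at 24 h, and Csmd1 (-2.03), Susd4 (-1.07), Vtn (-1.0) and Colec12 (-0.77) at 7 days. Colec11 and Colec12 encode collectins and Vtn vitronectin, while Susd4 and Csmd1 encode membrane proteins that restrain complement. The subunits of C1q, which starts the classical route with C1r, were uncalled, at 0.22 (C1qa), 0.26 (C1qb) and 0.19 (C1qc) at 24 h and 0.44, 0.26 and 0.07 at 7 days. C1s1, the substrate of C1r, was uncalled at -0.20 and 0.32. C4a, the near copy of C4b, held at most 11 normalized counts in any library and was not tested, and Cfd was listed at 47 in 1 stroke ipsilateral library at 24 h and at 0 in the other 23.

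**Figure D3:**
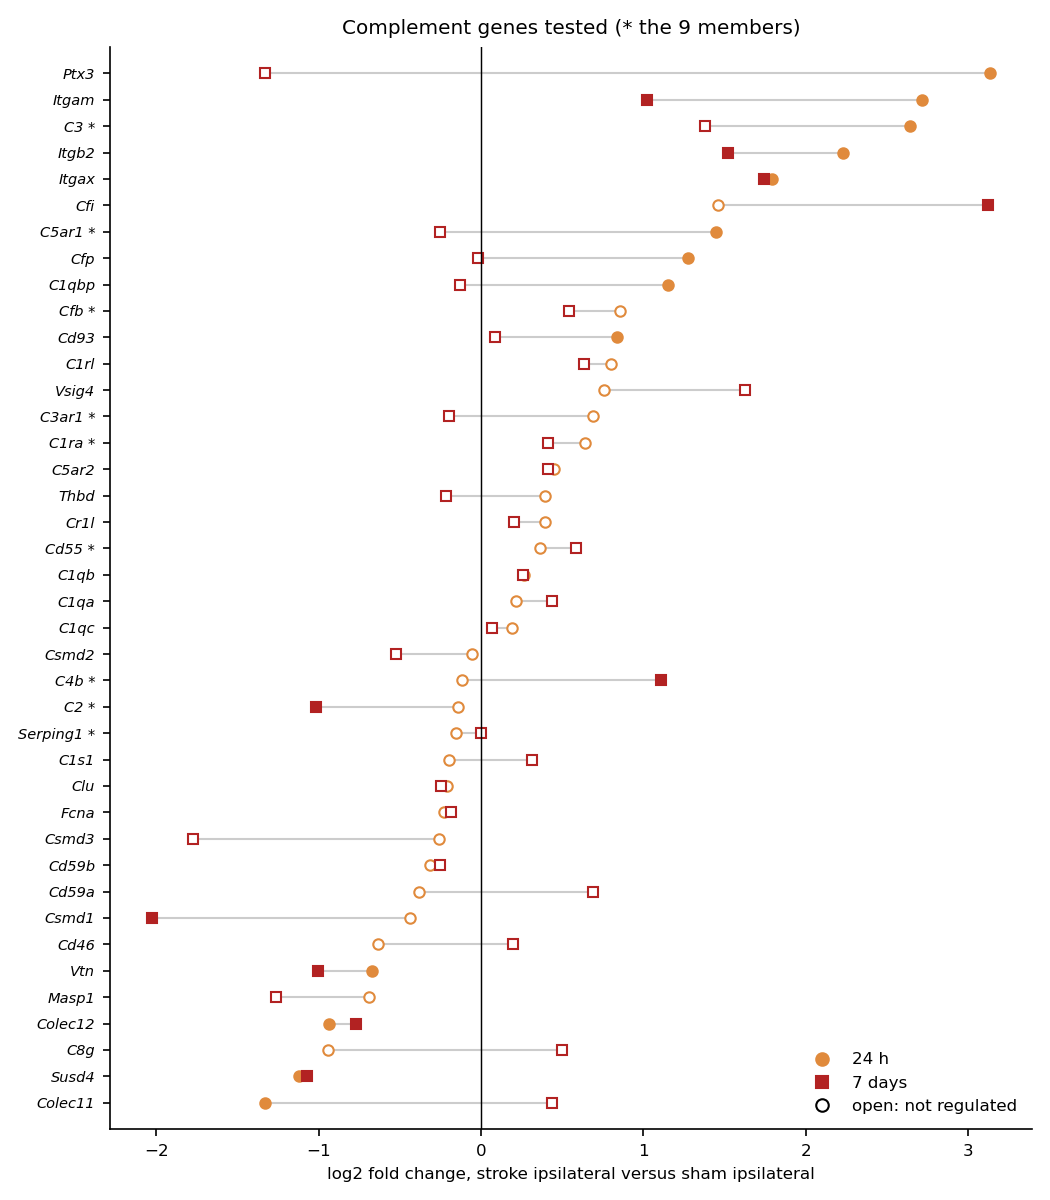
Log2 fold change of stroke ipsilateral against sham ipsilateral (horizontal axis) for complement genes tested, with 1 row a gene, ordered by the value at 24 h. Circles are 24 h, squares 7 days, filled symbols were called regulated, and asterisks mark the 9 members. Itgam, Itgb2 and Itgax were called higher at both times and Cfi (3.12) at 7 days.

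Leukocyte markers were high beside C3 and the receptors 24 h post-stroke, and at 7 days monocyte and microglial sums were above sham while the receptors were not. At 24 h, 5 of 5 tested neutrophil markers were called higher against sham, with the summed list of 6 at 2301 to 5389 normalized counts in the stroke ipsilateral and 208 to 1083 in the sham ipsilateral libraries. All 4 monocyte markers were called higher, with sums of 1926 to 4135 against 184 to 414. Of 6 microglial markers 0 were higher and 2 lower (sums of 1965 to 2344 against 1762 to 2968), and of 6 macrophage markers 1 was higher (2770 to 5912 against 2367 to 3886). At 7 days, where neither receptor was called, 1 of 5 neutrophil and 2 of 4 monocyte markers were called higher, with sums of 686 to 4109 against 171 to 1543 and 561 to 2485 against 214 to 361. Microglial sums were then 2876 to 3076 against 1627 to 2437, with 1 of 6 markers higher and 1 lower. At that time the mean levels of C3ar1 (121 against 144) and C5ar1 (147 against 199) lay below those of sham with overlap, while all 3 stroke libraries exceeded every sham library in the monocyte and microglial sums. Of the macrophage markers 2 of 6 were lower at 7 days, with sums of 1716 to 2070 against 2209 to 3388. All markers of these lists were in the table, of which Ly6g and Ngp were listed at 0 in at least 1 library. The part of each cell type in the members' levels was not tested.

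**Figure D4:**
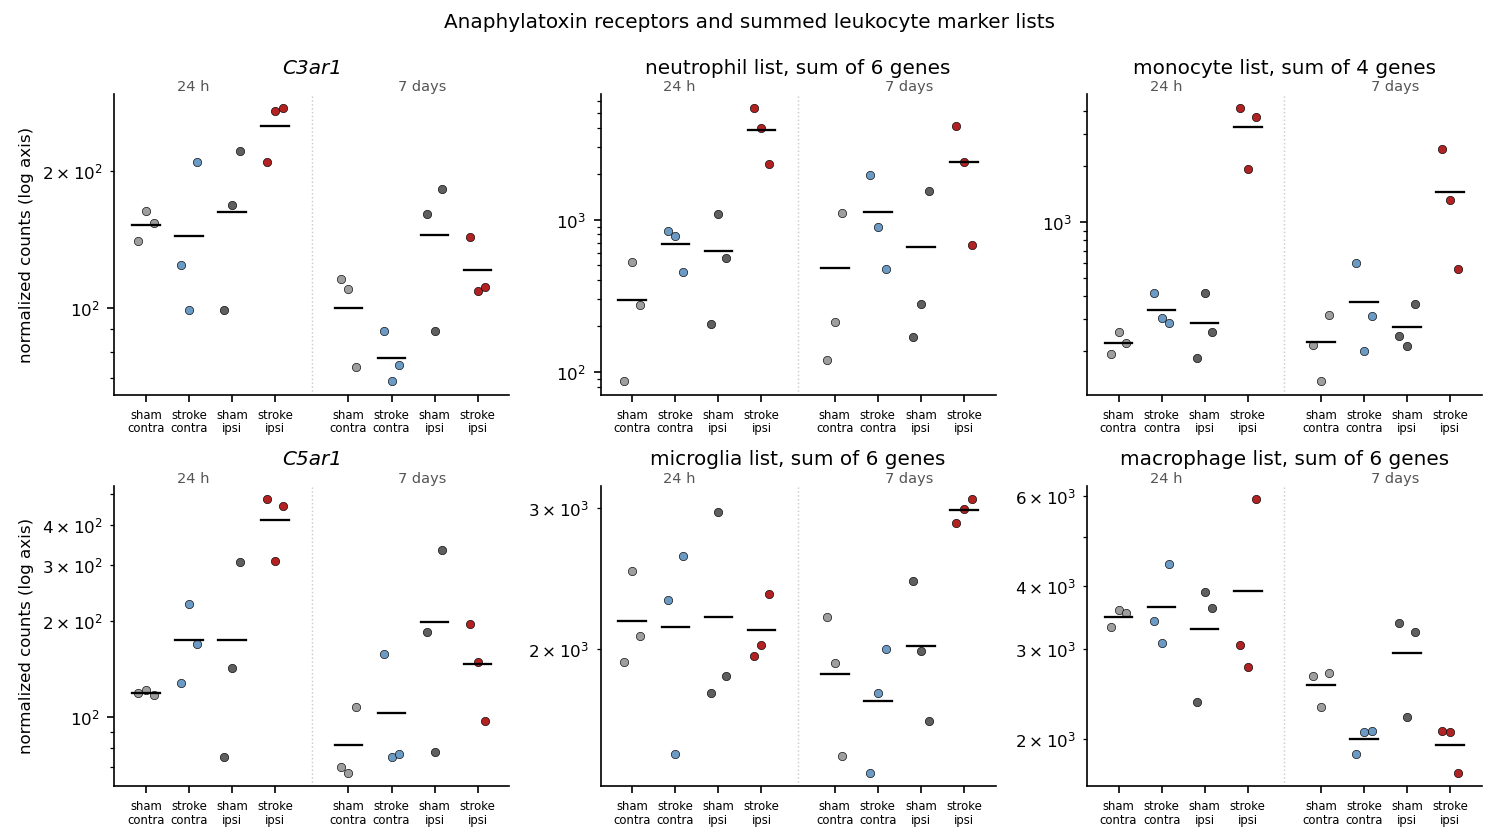
Normalized counts (vertical axes, logarithmic) of C3ar1 and C5ar1 and of the summed neutrophil, monocyte, microglia and macrophage marker lists in the 24 libraries. Points are libraries and horizontal bars are means of 3 libraries. C5ar1 stood at 309 to 481 in the stroke ipsilateral libraries at 24 h and at 97 to 196 at 7 days, when the monocyte sum was still 561 to 2485.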

How the data were processed

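RNA of brain microvessels was sequenced in 24 libraries with a stranded mRNA kit. After trimming and alignment to mm10 with STAR, the authors dropped reads matching several genes, normalized counts with DESeq2 and deposited them rounded, as a score relative to all libraries. These values are not reads, so no count model was run. The submitters' notes name STAR 2.5.2b, featureCounts 1.5.1 and DESeq2 1.6.2, and the paper gives other versions of STAR and DESeq2. Groups and replicates were taken from the titles. No 2 libraries were identical, and replicates correlated at r = 0.970 to 0.987.

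Log2(value + 1) of genes with a mean above 5 was fitted with limma 3.58.1 in R 4.3.3 (mean-variance trend, all groups, Benjamini-Hochberg over all genes tested), checked on simulated data. Levels, motifs and plots used Python 3.11.15 with pandas 2.3.3, numpy 2.4.6 and matplotlib 3.10.9. The depth of single libraries in reads is not known from these files, and low values such as those of Cfb are the least precise. Named genes were the 9 members, up to 6 called complement genes a direction and time, genes paired with members, and the 3 genes most like each member. Exon lengths came from GENCODE M21. The members and lists were chosen with earlier results of these data known. Alternatives were a pseudocount of 0.5, no filter, a minimum mean of 20, median centring, a correction for length and GC content (splines with 5 degrees of freedom, 99.9% of genes), a replicate block, only the compared groups, and each library left out in turn. Residuals of same-numbered libraries of both hemispheres correlated at 0.145 to 0.467 after sham surgery and 0.0593 to 0.360 after stroke, and these ranges overlapped. The numbers were taken to pair the sham hemispheres only. The main fit used no pairing, also between the sham hemispheres, and treated all libraries as independent. For comparisons of hemispheres, the replicate block paired same-numbered libraries after sham surgery and after stroke. Columns of annotation were not used. 1 gene of the wider list is not reported here.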

Additional observations from a re-analysis of the deposited data

Results flagged for a closer look

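C4b was singled out because its ipsilateral stroke effect differed between the time points by an interaction test. The effect was -0.12 at 24 h and 1.11 at 7 days on the log2 scale, a difference of 1.22 (SE 0.305, limma adjusted p = 0.0151). All 3 stroke libraries lay above all sham libraries at 7 days, and the groups overlapped at 24 h. Left-out libraries moved the difference between 0.99 and 1.42, and the call was lost in 1 of 12 such fits (limma adjusted p = 0.0520).

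C3 was singled out because its stroke effect at 24 h differed between the hemispheres, a comparison chosen after the data had been seen. The effect was 2.64 ipsilaterally and 0.27 contralaterally, a difference of 2.38 (SE 0.671, limma adjusted p = 0.0350). Left-out libraries moved the difference between 2.14 and 2.70, and the call was lost in 8 of 12 such fits (limma adjusted p up to 0.102). All 3 ipsilateral stroke libraries lay above all sham libraries of that hemisphere, and the contralateral groups overlapped. The groups hold 3 libraries each, too few for a test of single outlying libraries. The cause of both differences was not tested.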

How the results depend on the processing

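Another pseudocount and other filters on low values changed no call of a member. Median centring took the hemispheres of stroke mice at 24 h from 3 to 1 (C1ra and C3ar1 lost), and stroke against sham ipsilaterally at 7 days from 2 to 3 (C3 gained). The correction for length and GC content also gave 3 there (C3 gained), and 2 between the stroke hemispheres at 24 h (C1ra lost). With only the compared groups in the fit, stroke against sham ipsilaterally went from 2 to 3 at 24 h (C1ra gained) and from 2 to 1 at 7 days (C2 lost), and contralaterally at 7 days from 1 to 0 (C4b lost). The stroke hemispheres then stayed at 3 at 24 h, with C3ar1 lost and C5ar1 gained, and went from 1 to 0 at 7 days (C3 lost), and the hemisphere interaction at 24 h went from 1 to 2 (C1ra gained). The cause was not tested. With the replicate block that interaction also gave 2 (C1ra, 0.94, adjusted p = 0.0235), C5ar1 was called between the stroke hemispheres at 24 h (1.26, adjusted p = 0.0140), where the numbers were not taken to pair libraries, and no other call changed. Of 992 values of members under these alternatives, 978 kept their side of the threshold, 7 fell below it and 7 passed it. Without 1 library at a time, 1028 of 1080 did, and the counts ranged from 1 to 3 for stroke against sham ipsilaterally at 24 h and at 7 days, 0 to 1 contralaterally at 7 days, 1 to 3 and 0 to 2 between the stroke hemispheres at 24 h and 7 days, 1 to 3 from 24 h to 7 days, 0 to 2 for the time interaction, 0 to 1 for the stroke contralateral times and 0 to 1 for the hemisphere interaction at 24 h. No called value changed sign. Median centring shifted the median of all genes by over 0.1 from 24 h to 7 days (-0.04 to 0.07), as did the correction for length and GC content at 7 days (0.02 to 0.14), with no direction of a call turned.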
